A study of Mus musculus with 6 samples.

Results

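The genes that encode collagen chains and laminin chains were followed in mouse embryonic stem cells in which Tdg was knocked down. They were chosen with earlier results of these data known, but the rule itself used names and no values. It took every gene whose platform symbol reads Col, a number, a and a number, or Lama, Lamb or Lamc with 1 digit. This gave 54 of the 19938 named genes on the array, 44 for collagen chains and 10 for laminin chains, measured by 56 rows of the table. Only Col6a5 and Col6a6 had 2 rows each, of which the one with the higher mean was used. RNA was hybridised to Affymetrix arrays, 3 with RNA of E14 Tdg knockdown cells and 3 with RNA of control E14 cells, and the arrays are numbered 1 to 3 within each group. E14 is a line of mouse embryonic stem cells. The treatment protocol, the same for both groups, describes infection with lentiviral vectors and selection with puromycin, on gelatin in medium with serum and LIF. What the control vector carried, whether the cells were clones, and whether the samples of a group were separate cultures was not stated in the labels. The p-values therefore rest on array-to-array spread alone, and that spread may be technical.

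Collagen chains wind around each other as triple helices. Types I, II, III, V and XI form fibrils, type IV forms the network of basement membranes, and others sit on fibrils, span membranes or form beaded filaments. A laminin is a cross-shaped trimer of 1 alpha, 1 beta and 1 gamma chain that polymerises beneath cells and is bound by integrins and dystroglycan. Laminin and type IV collagen, joined by nidogen and perlecan, make up the first basement membranes of the embryo, and embryonic stem cells themselves secrete laminin. Tdg encodes a DNA glycosylase that removes oxidised forms of methylated cytosine, which in these cells lies mostly in CpG dinucleotides.

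The bases before the start of transcription are shown for Lamb1, Lama5 and Col18a1, 3 of the 4 genes whose signal lay below all controls in every knockdown array, and for Col3a1, whose window holds no CpG. Capitals mark CpG dinucleotides. All are from RefSeq, assembly GRCm38.p6, 5′ to 3′ on the strand of the gene, 250 bases each. For Col18a1 the one of its 2 listed starts with more CpG is given.
Lamb1, chr12:31265043-31265292, plus strand: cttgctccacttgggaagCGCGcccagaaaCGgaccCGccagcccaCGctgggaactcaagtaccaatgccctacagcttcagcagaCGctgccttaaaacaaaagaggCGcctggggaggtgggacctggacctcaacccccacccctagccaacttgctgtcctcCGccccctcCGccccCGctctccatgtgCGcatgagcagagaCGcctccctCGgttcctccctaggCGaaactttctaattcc
Lama5, chr2:180225860-180226109, minus strand: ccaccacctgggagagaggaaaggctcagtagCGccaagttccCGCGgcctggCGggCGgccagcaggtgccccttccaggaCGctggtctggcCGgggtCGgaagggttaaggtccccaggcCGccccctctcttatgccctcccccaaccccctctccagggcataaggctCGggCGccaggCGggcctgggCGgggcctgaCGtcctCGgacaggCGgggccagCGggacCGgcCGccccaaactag
Col18a1, chr10:77166531-77166780, minus strand: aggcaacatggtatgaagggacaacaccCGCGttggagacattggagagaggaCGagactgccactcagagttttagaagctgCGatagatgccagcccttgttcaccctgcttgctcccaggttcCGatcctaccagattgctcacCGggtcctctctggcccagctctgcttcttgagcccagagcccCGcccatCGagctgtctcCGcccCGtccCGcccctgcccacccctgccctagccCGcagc
Col3a1, chr1:45311288-45311537, plus strand: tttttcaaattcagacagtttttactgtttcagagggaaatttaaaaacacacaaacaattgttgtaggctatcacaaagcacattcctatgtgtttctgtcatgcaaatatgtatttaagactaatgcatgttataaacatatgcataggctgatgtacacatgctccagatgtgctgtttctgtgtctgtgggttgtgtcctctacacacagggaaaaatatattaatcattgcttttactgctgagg
The Lamb1 window held 14 CpG dinucleotides, that of Lama5 19, that of Col18a1 12 and that of Col3a1 0. The other Col18a1 window, not shown, held 3. Windows of Lama2, Col9a1 and Col28a1 also held 0, that of Lamb2 held 3 and those of Lamb3 held 2 and 3. Methylation of these windows was not measured.

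The knockdown showed in Tdg itself. The mean of the 4 rows that list Tdg together with its pseudogene Tdg-ps2 was 8.24, 8.155 and 7.925 in knockdown arrays, against 11.12, 11.2 and 11.1 in controls, on the log2 scale. That left 12.2% of the control signal (limma, adjusted p 8.79e-05; exact two-sided permutation p 0.1, the smallest that 3 against 3 allows). The extraction protocol names another knocked-down gene, Kdm2b, while titles and design name Tdg. Array medians ran from 7.41 to 7.48 and correlations between arrays from 0.975 to 0.996. The first principal component, 58.6% of the variance, placed knockdown replicate 3 at 31.0 and the other arrays between -17.5 and 5.17.

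No collagen or laminin gene passed the test between knockdown and control. limma called 0 of the 54 genes at an adjusted p of 0.05, where 158 of all named genes, or 0.792%, were called. At an unadjusted p of 0.05, 4 of the 54 passed, all lower in knockdown cells, 3 laminin chains and 1 collagen chain. Among all named genes 12.5% passed, 5.03% higher and 7.48% lower. The mean signal was above the highest array median for 29 of the 54 genes (53.7%) and for 57.1% of all named genes. It was above 9 for 5 of the 54, Lamc1, Lama5, Lamb1, Col18a1 and Lama1, and for 35.5% of all named genes. Differences, given throughout as knockdown minus control on the log2 scale, ran from -0.34 for Lamb1 to 0.21 for Col14a1. The 95% interval lay within a 1.5-fold change either way for 51 of the 54 genes and for 93.7% of all named genes. The exceptions were Col14a1, Col9a3 and Col5a2, each of whose intervals reached past 1.5-fold upward. The families lay on different sides of 0: 8 of 10 laminin chains were below 0, with a median of -0.16, while 35 of 44 collagen chains were above 0, with a median of 0.07. The median of all named genes was 0.02, and 44.5% of them lay below 0. Of 7821 other named genes with means in the range of the collagens apart from Col18a1, 38.2% lay below 0. Their median was 0.04, and 20.5% of the collagen chains lay below 0. A mean above 9 was reached by 4 of the 10 laminin chains and 1 of the 44 collagen chains. No genes of like level were set beside the laminin chains. The difference between the families, and the part of signal level in it, was not tested. The side of the collagen chains turned on leaving out either of 2 arrays, as shown further on.

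**Figure D1:**
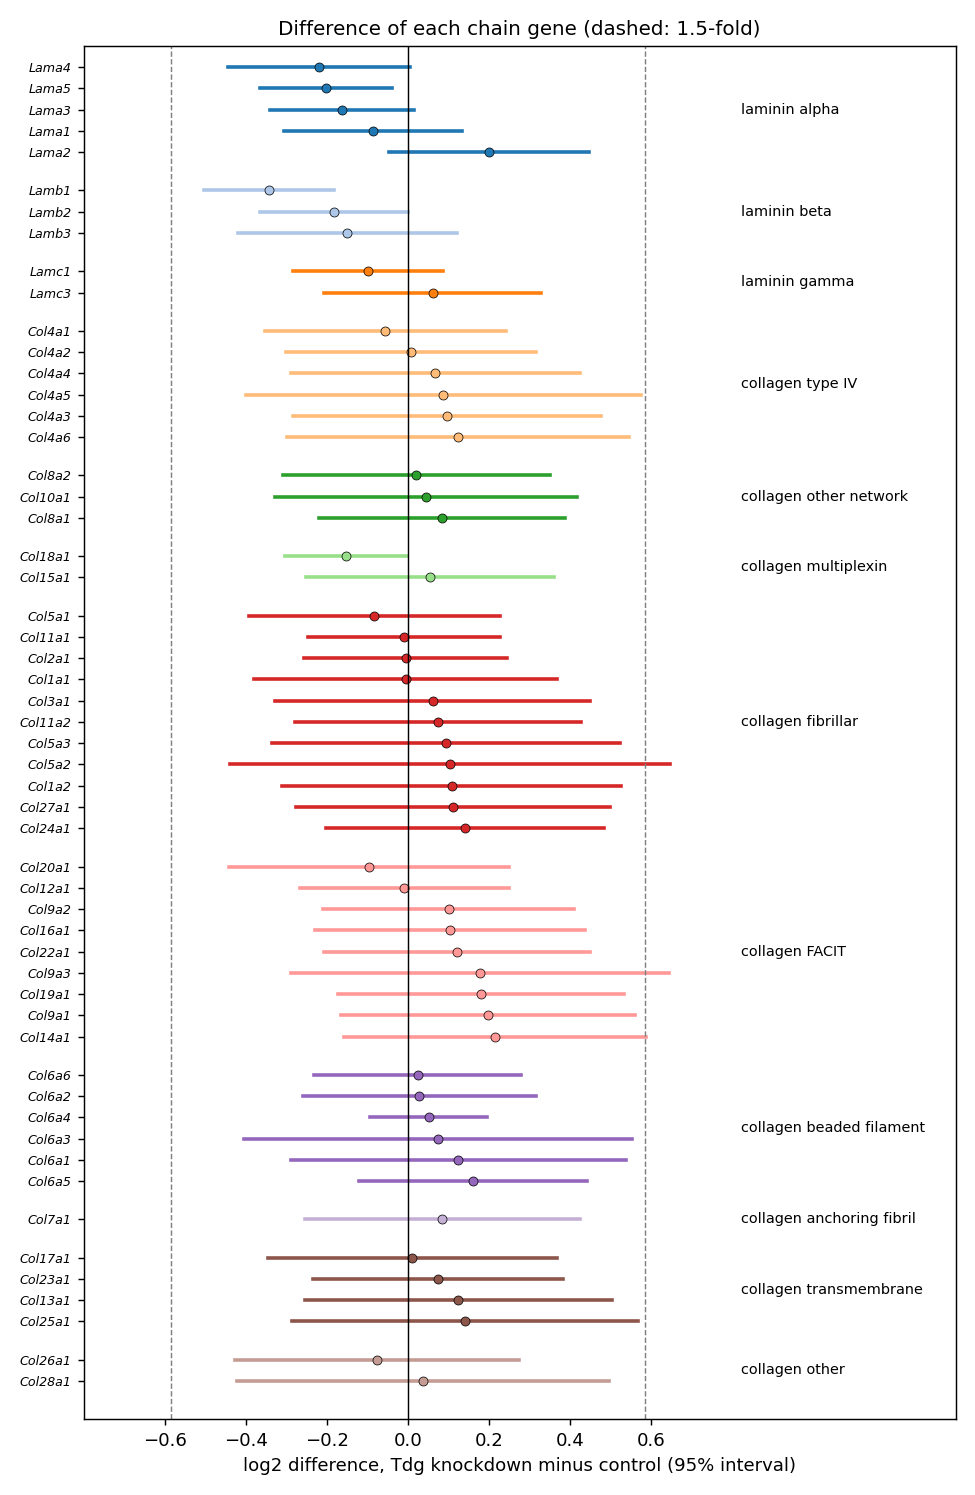
Log2 difference of each of the 54 chain genes, Tdg knockdown minus control (points), with the 95% interval from limma (bars), grouped by class of chain. Dashed lines mark a 1.5-fold change. Lamb1, at -0.34, lies farthest from 0, and intervals of most collagen chains include 0.

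The beta chain of laminin-111 and laminin-511, the main laminins of the early embryo, was the member with the smallest p. Lamb1 signal was 10.12, 10.21 and 10.05 in knockdown arrays, against 10.52, 10.44 and 10.45 in controls. The groups did not overlap, and every knockdown array lay below the lowest control. The means were 10.13 ± 0.08 and 10.47 ± 0.04 (SD, n = 3 each), a difference of -0.34 with a 95% interval of -0.50 to -0.18, which left 78.8% of the control signal. limma gave an adjusted p of 0.0842, short of the threshold. With the replicate number as a block the adjusted p was 0.0474, so that Lamb1 alone of the 54 genes was called (1.85%), while 3.08% of all named genes were called in that fit, 1.07% higher and 2.01% lower. The difference within same-numbered arrays was -0.40, -0.23 and -0.40.

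The other beta chains also lay below 0 without passing. Lamb2, the beta chain of laminins at the neuromuscular junction and the kidney filter, had 8.81, 8.96 and 8.81 in knockdown arrays, against 8.95, 9.05 and 9.13 in controls. Its difference was -0.18 (95% interval -0.37 to -0.00, adjusted p 0.394), and 1 knockdown array reached above the lowest control. Lamb3, which pairs in the laminin of skin, had 7.64, 7.54 and 7.98 in knockdown arrays, against 7.84, 7.90 and 7.87 in controls. Here knockdown replicate 3 was the highest of the 6 arrays and the other 2 knockdown arrays were the lowest. The difference of Lamb3 was -0.15 (adjusted p 0.687), and -0.28 without knockdown replicate 3 (adjusted p 0.0963).

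Of the alpha chains, which carry the main sites for cell receptors, Lama5 and Lama3 had groups that did not overlap. Lama5, the alpha chain of laminin-511, had 10.28, 10.36 and 10.20 in knockdown arrays, against 10.51, 10.42 and 10.52 in controls, a difference of -0.20 (95% interval -0.37 to -0.04, adjusted p 0.283). Lama3, the alpha chain of the skin laminin, had 7.37, 7.22 and 7.32 in knockdown arrays, against 7.56, 7.46 and 7.38 in controls, a difference of -0.16 (adjusted p 0.443). For Lama3 the gap between the groups was a single step of the second decimal. Lama4, found around vessels and muscle, had 6.70, 6.56 and 6.50 in knockdown arrays, against 6.77, 6.97 and 6.68 in controls (-0.22, adjusted p 0.413), with groups that overlapped by 1 array. Lama1, the alpha chain of laminin-111, had 9.55, 9.66 and 9.35 in knockdown arrays, against 9.69, 9.59 and 9.54 in controls. Its difference was -0.09 (95% interval -0.31 to 0.13, adjusted p 0.781), and -0.00 without knockdown replicate 3. Lama2, the alpha chain of muscle laminin, was the only alpha chain above 0, with 5.78, 5.86 and 6.16 in knockdown arrays, against 5.69, 5.79 and 5.72 in controls (0.20, adjusted p 0.517). Its highest value was again that of knockdown replicate 3, and without it the difference was 0.09.

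Both gamma chains lay within 0.10 of 0. Lamc1, shared by most laminins including laminin-111 and laminin-511, had 11.40, 11.45 and 11.25 in knockdown arrays, against 11.55, 11.45 and 11.40 in controls (-0.10, 95% interval -0.28 to 0.08, adjusted p 0.696). Lamc3 had 7.65, 7.70 and 7.91 in knockdown arrays, against 7.55, 7.63 and 7.90 in controls (0.06, adjusted p 0.875). In both genes the groups overlapped. Of the laminin-111 chains Lamb1 thus lay at -0.34, Lamc1 at -0.10 and Lama1 at -0.09, and the 3 differences were not tested against each other. Signals of different probe sets cannot be set against each other as amounts of RNA.

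**Figure D2:**
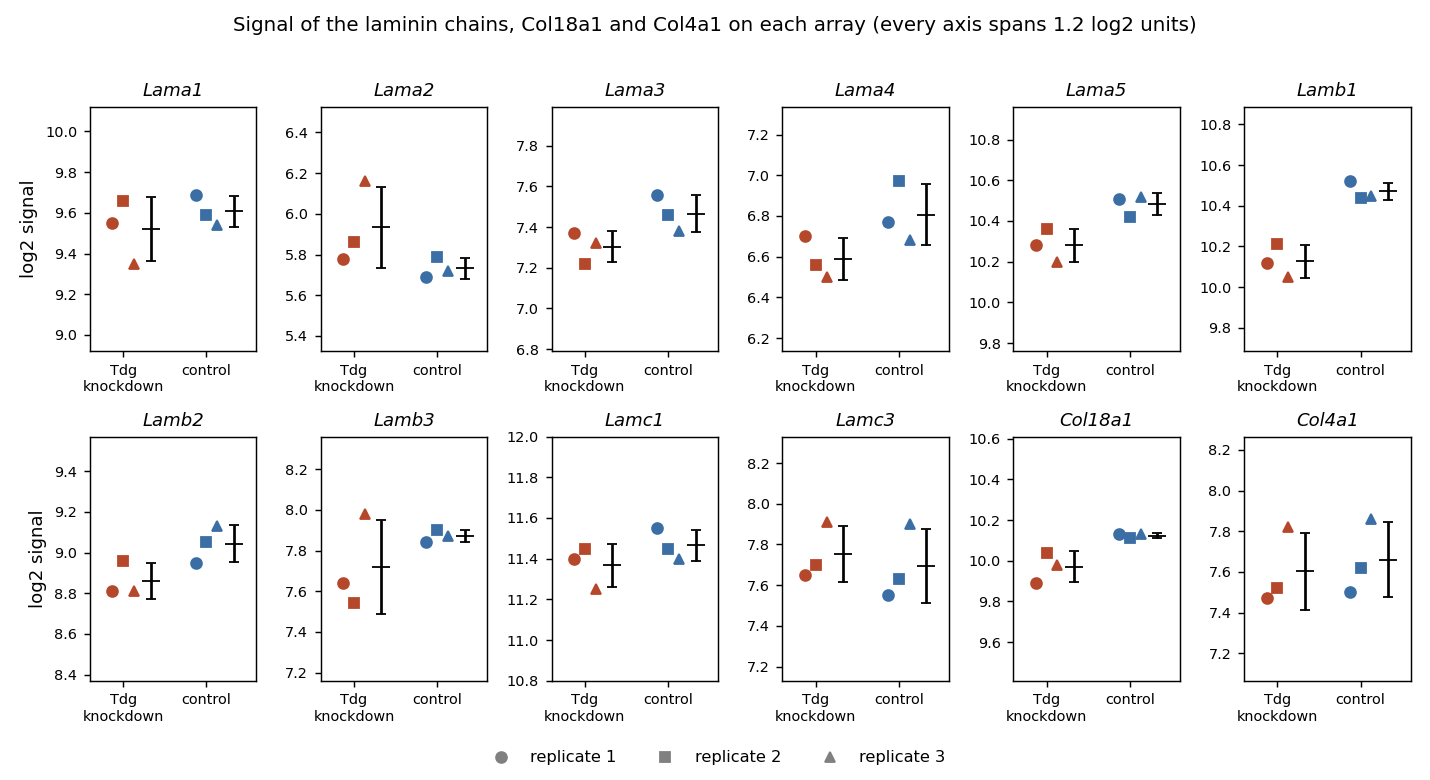
Log2 signal of the 10 laminin chains, Col18a1 and Col4a1 on each array, Tdg knockdown left of control, with the symbol giving the replicate number and the bar the mean ± SD of 3 arrays. Lamb1 shows the widest gap between the groups, and in Lama2, Lamb3 and Lamc3 the highest value is that of knockdown replicate 3.

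Counted over both families, 4 of 54 genes had groups that did not overlap, all lower in knockdown cells (7.41%): Lamb1, Lama5, Lama3 and Col18a1. Among all named genes 19% had such groups, 7.98% higher and 11% lower, so the share among the chain genes was no larger than the background. The 3 laminin chains among them were 3 of 10. Col18a1, the basement membrane collagen whose end fragment is endostatin, was the 1 collagen chain of 44. It had 9.89, 10.04 and 9.98 in knockdown arrays, against 10.13, 10.11 and 10.13 in controls. The controls were within 0.02 of each other, and the difference was -0.15 (95% interval -0.30 to -0.00, adjusted p 0.393, or 0.206 with the replicate block). Col15a1, the other chain of its class, had 7.13, 6.97 and 7.47 in knockdown arrays, against 7.03, 7.16 and 7.22 in controls, with a difference of 0.05.

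Type IV collagen, the other main polymer of basement membranes, showed no difference beyond its spread. Col4a1 had 7.47, 7.52 and 7.82 in knockdown arrays, against 7.50, 7.62 and 7.86 in controls (-0.06, 95% interval -0.35 to 0.24). Its partner Col4a2 had 7.46, 7.43 and 7.91 in knockdown arrays, against 7.53, 7.61 and 7.64 in controls (0.01, 95% interval -0.30 to 0.31). The pair of chains forms the common type IV trimer, and the genes lie head to head: in the RefSeq table the first bases of their transcripts overlap by 22. In both genes the array numbered 3 was the highest of its group. The chains of the kidney and lung network gave the same picture. Col4a3 had 6.86, 6.94 and 7.40 in knockdown arrays, against 6.76, 7.0 and 7.15 in controls (0.10). Col4a4 had 7.09, 7.0 and 7.59 in knockdown arrays, against 7.10, 7.13 and 7.25 in controls (0.07). Col4a5 had 6.86, 6.76 and 7.49 in knockdown arrays, against 6.74, 6.90 and 7.21 in controls (0.09). In these chains knockdown replicate 3 exceeded every other array by more than the groups differed. Col4a6 had 6.54, 6.42 and 7.11 in knockdown arrays, against 6.54, 6.44 and 6.72 in controls (0.12), and the lowest adjusted p of the 6 type IV genes, 0.837, was its own.

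The fibrillar collagens had no member past the threshold and no groups that did not overlap. Their 11 differences ran from -0.08 to 0.14 with a median of 0.07, and the lowest adjusted p was 0.773. Col1a1, the main chain of bone and tendon fibrils, had 8.20, 8.19 and 8.69 in knockdown arrays, against 8.17, 8.37 and 8.56 in controls (-0.01, 95% interval -0.38 to 0.37). Its partner Col1a2 had 7.52, 7.48 and 8.12 in knockdown arrays, against 7.44, 7.61 and 7.75 in controls (0.11). Col3a1, the fibrillar collagen of vessels and hollow organs, had 7.60, 7.50 and 8.08 in knockdown arrays, against 7.46, 7.72 and 7.82 in controls (0.06). In all 11 genes of this class knockdown replicate 3 was the highest array and control replicate 3 the highest control.

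The remaining classes likewise held no called gene. The 9 fibril-associated collagens, which decorate the surface of fibrils, had a median of 0.12 and ran from -0.10 for Col20a1 to 0.21 for Col14a1 (adjusted p 0.676). The 6 genes of type VI, which forms beaded filaments around cells, lay between 0.02 and 0.16 with a median of 0.06. Col6a5 was highest among them. The row used and its second row gave differences of 0.16 and 0.11, but they disagreed on knockdown replicate 3. The row used had 7.49, 7.63 and 7.16 in knockdown arrays, against 7.24, 7.32 and 7.24 in controls, while its second row had 7.19, 7.06 and 7.73 in knockdown arrays, against 6.95, 7.24 and 7.45 in controls. Knockdown replicate 3 was thus the lowest array on one row and the highest on the other. The 4 transmembrane collagens had a median of 0.10, the network-forming Col8a1, Col8a2 and Col10a1 one of 0.04, and the anchoring fibril gene Col7a1 differed by 0.08. Col26a1 and Col28a1 lay at -0.08 and 0.04.

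The collagen genes differed more between arrays than between groups. In knockdown replicate 3 their median deviation from the control mean was 0.39, against -0.06 and -0.125 in knockdown replicates 1 and 2. The controls themselves lay at -0.14, -0.01 and 0.15. For all named genes the same median stayed between -0.02 and 0.03 on every array. Knockdown replicate 3 was the highest of the 6 arrays for 40 of 44 collagen genes (90.9%), for 3 of 10 laminin genes and for 34.6% of all named genes. Among the 7821 other named genes with a mean in the range of the collagens apart from Col18a1, 51.7% were highest in that array. The median deviation of these 7821 genes was 0.14 there, and -0.007 and -0.03 in knockdown replicates 1 and 2. In the controls it was -0.05, 0 and 0.05. Control replicate 3 was the highest control for 40 of the 44 collagen genes. The part of this array and of signal level in the collagen and laminin differences was not tested.

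**Figure D3:**
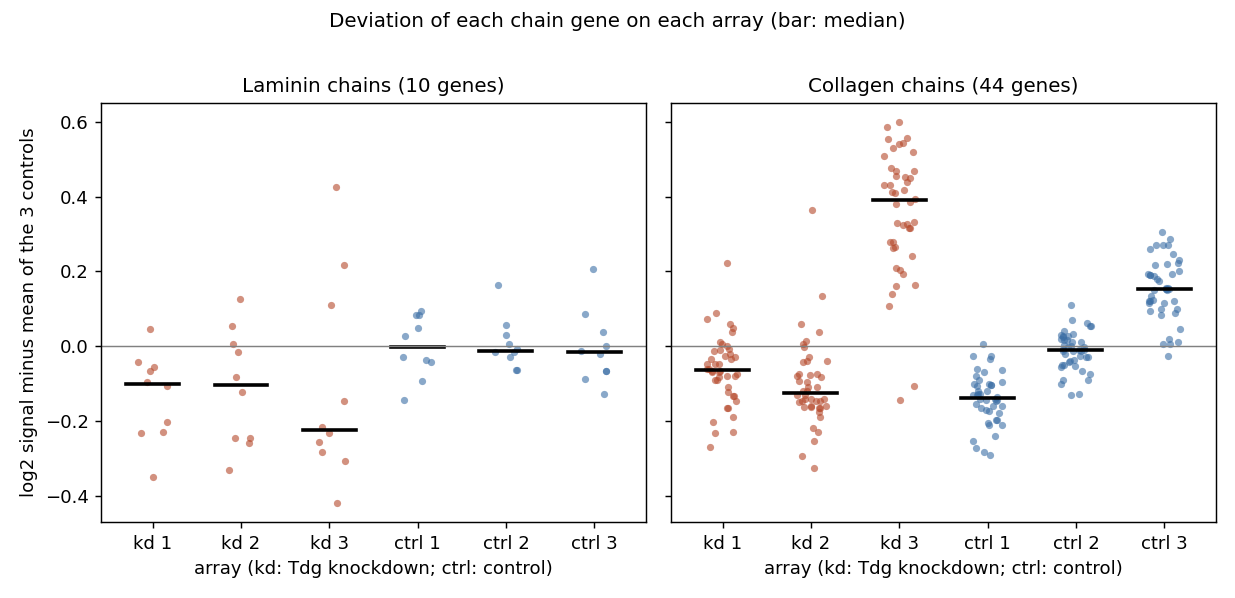
Log2 signal of each laminin gene (left) and collagen gene (right) on each array, minus the mean of the 3 controls, with bars at the median. The collagen genes sit at a median of 0.39 in knockdown replicate 3, and the laminin genes at -0.23 in that array.

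The direction of the collagen differences turned on leaving out either of 2 arrays, knockdown replicate 3 or control replicate 1. Without knockdown replicate 3, 39 of the 44 collagen genes lay below 0 and 5 above, with a median of -0.09, where 9 lay below 0 with all arrays. The laminin chains had 9 of 10 below 0 and a median of -0.16 in that fit. Without control replicate 1, 24 collagen genes lay below 0 and 19 above, with a median of -0.0058, while 9 of 10 laminin chains lay below 0 with a median of -0.14. With array weights 29 collagen genes lay below 0 and 15 above, with a median of -0.033. Without both arrays numbered 3, a setting chosen after seeing the data, the collagen median was -0.005 and that of the laminins -0.13. No member was called without knockdown replicate 3 or without both arrays numbered 3, fits in which 1.45% (0.797% lower) and 0.562% of all named genes were. The spread followed the same line: the median standard error was 0.15 for collagen genes, 0.09 for laminin genes and 0.09 for all named genes.

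**Figure D4:**
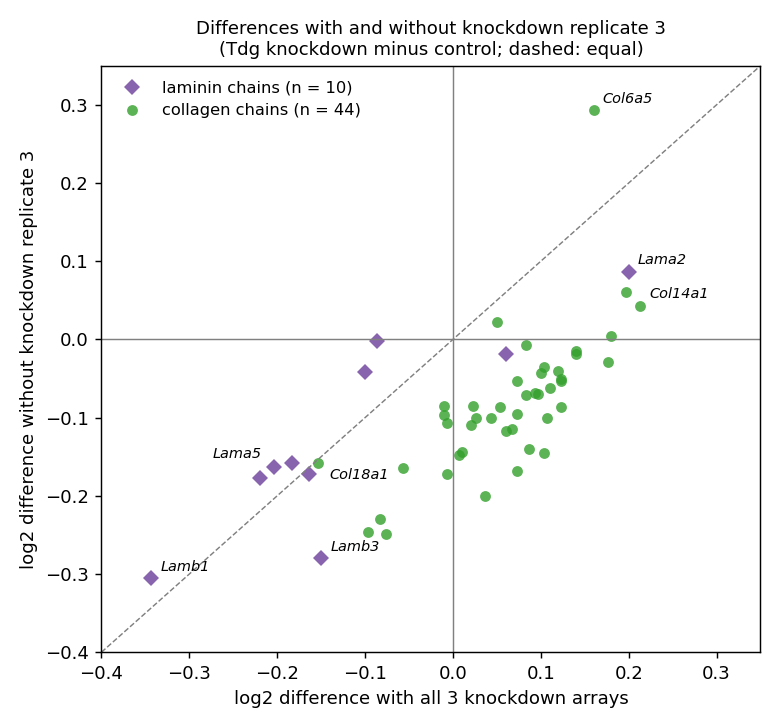
Log2 difference of each chain gene with all 3 knockdown arrays (horizontal) and without knockdown replicate 3 (vertical), Tdg knockdown minus control. Most collagen points lie right of 0 and below 0, while Lamb1 stays at -0.31 and Lama5 at -0.16.

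In GRCm38.p6, 8 pairs of members adjoin with no protein-coding gene between them. Col9a1 and Col19a1 lay at 0.20 and 0.18, Col3a1 and Col5a2 at 0.06 and 0.10, Col4a6 and Col4a5 at 0.12 and 0.09, and Col4a4 and Col4a3 at 0.07 and 0.10. Farther apart were Col6a2 and Col6a1 at 0.03 and 0.12, and Col6a5 at 0.16 with its neighbours Col6a6 at 0.02 and Col6a4 at 0.05. The remaining pair, Col4a1 and Col4a2, is given above. These pairs share the arrays and their spread, and none of their members was called. RefSeq promoter windows matched 40 of the 54 genes, with 44 windows of 250 bases before a start. Their median CpG count was 8.5, against 6 over all 32851 windows. It was 9.5 in the 38 collagen windows and 3 in the 6 laminin windows. The members' windows ranged from 0 to the 31 of Col4a1, and 6 held 20 or more, which is 13.6% against 17.9% of all windows. The GC box GGGCGG stood on either strand in 54.5% of the members' windows and 32.7% of all. By family it stood in 57.9% of the collagen windows and 33.3% of the laminin windows. CCAAT stood in 31.8% of the members' windows against 33.8% of all, and TATAAA in 11.4% against 12.4%. GGGCGG itself contains a CpG, and a match describes letters only. Col4a1, with 31 CpG, differed by -0.06, Lama5, with 19, by -0.20, and Col3a1, with 0, by 0.06. These were picked as examples, and other genes lay otherwise: Col13a1, with 24, differed by 0.12, and Lamb2, with 3, by -0.18. A relation of CpG count to difference was not tested.

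Genes that make, secrete, cut or bind these chains were followed as 5 lists. Of all named genes limma called 0.241% higher and 0.552% lower, and with the replicate block 1.07% higher and 2.01% lower. Of 26 genes for the folding, modification and export of collagens and laminins, 1 rose, Sec23a, a coat protein of the vesicles that carry cargo out of the endoplasmic reticulum. It had 11.35, 11.47 and 11.29 in knockdown arrays, against 10.83, 10.76 and 10.71 in controls, a difference of 0.60 ± 0.07 (SE, adjusted p 0.0263). All knockdown arrays lay above all controls. Its coat partner Sec24d lay at 0.26 (adjusted p 0.244), while the other coat genes of the list, Sec13 and Sec31a, lay at 0.003 and -0.003. The list had a median of -0.00. Of 13 genes for the cutting and crosslinking of procollagen none passed, with a median of -0.03. Pcolce2, which enhances removal of the procollagen tail, lay at 0.39 (adjusted p 0.121, or 0.0354 with the replicate block), and Bmp1, the enzyme that removes it, at -0.29 (0.155, or 0.0493 with the block).

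None of the 16 genes for partners in basement membranes passed, with a median of -0.09. Agrn, the proteoglycan agrin, had 10.32, 10.40 and 10.28 in knockdown arrays, against 10.62, 10.55 and 10.63 in controls (-0.27, adjusted p 0.13). Nid1, nidogen, which links laminin to type IV collagen, had 10.42, 10.48 and 10.27 in knockdown arrays, against 10.73, 10.65 and 10.61 in controls (-0.27, adjusted p 0.185). In both the groups did not overlap. Hspg2, the proteoglycan perlecan, lay at -0.33 (adjusted p 0.207). Of the 16 genes 6 (37.5%) had every knockdown array below every control and 1 had the opposite, against 11% and 7.98% of all named genes.

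Of 15 genes for receptors of collagen and laminin, 1 rose, Itga1, the alpha chain of a collagen-binding integrin. It had 7.83, 7.95 and 7.68 in knockdown arrays, against 7.35, 7.25 and 7.21 in controls (0.55 ± 0.09 SE, adjusted p 0.0464). With the replicate block 2 more were called, both lower: Itga3, the alpha chain of a laminin-binding integrin (-0.43, adjusted p 0.0575, blocked 0.0277), and Ddr1, a collagen receptor kinase (-0.31, adjusted p 0.118, blocked 0.0445). Among all named genes 0.241% were called higher and 0.552% lower without the block, and 1.07% and 2.01% with it. The receptor list had a median of -0.02. Of 13 genes for proteoglycans and organisers of fibrils, 1 fell, Bgn, the small proteoglycan biglycan. It had 8.24, 8.20 and 8.04 in knockdown arrays, against 8.72, 8.69 and 8.66 in controls (-0.53 ± 0.07 SE, adjusted p 0.0331), while the list had a median of 0.05. The calls of Sec23a, Itga1 and Bgn were each lost on leaving out any array but knockdown replicate 3, with adjusted p from 0.0825 to 0.253, and with all rows tested. That of Itga1 was also lost with median centring (adjusted p 0.0535), and those of Itga1 and Bgn where a change of at least 1.5-fold was asked for.

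Markers of the cell types that could contribute these chains were given beside them. The 10 embryonic stem cell markers had a median of -0.01 and none passed, with Klf4 at 0.09 and Sox2 at -0.10. Their mean signal was 12.1 to 12.2 in knockdown arrays and 12.1 to 12.2 in controls, and signal over background was not analysed here. Of 7 markers of primitive endoderm none passed (median 0.11, Dab2 -0.30, Foxa2 0.15), with a mean signal of 7.26 to 7.45 in knockdown arrays and 7.26 to 7.37 in controls. Knockdown replicate 3 was the highest array for 6 of the 7. Without that array the median was 0.04, and without both arrays numbered 3 the median was -0.04. Of 7 markers of parietal endoderm, the tissue that lays down a thick laminin-111 membrane, 6 lay below 0 and none passed (median -0.11). Among all named genes 44.5% lay below 0. Srgn lay at -0.37 (adjusted p 0.155, blocked 0.0393) and Cited1 at -0.12, and the mean signal was 8.09 to 8.18 in knockdown arrays and 8.18 to 8.27 in controls. Without knockdown replicate 3, 7 of these markers lay below 0 (median -0.10), and without both arrays numbered 3, 6 did (median -0.065). Of 8 markers of visceral endoderm 6 lay above 0 (median 0.07), with Hnf4a at -0.46 (adjusted p 0.0673, blocked 0.036, without knockdown replicate 3 0.0445) and Cubn at -0.20, and mean signals of 6.56 to 6.84 in knockdown arrays and 6.60 to 6.77 in controls. Without knockdown replicate 3, the highest array for 5 of the 8, 3 lay above 0 and the median was -0.06. Control replicate 3 was the highest control for 6 of the 8. Without both arrays numbered 3 the median was 0.01 and 3 lay below 0. The 10 fibroblast markers had a median of 0.02, with Pdgfrb at -0.26 (adjusted p 0.143) and Dpt at 0.41 (0.175), and mean signals of 6.25 to 6.47 in knockdown arrays and 6.23 to 6.37 in controls. Knockdown replicate 3 was the highest array for 7 of the 10. Without that array the median was -0.03, and without both arrays numbered 3 the median was 0.01. The part of any such cells in the laminin values was not tested, and in such bulk samples fewer cells of a type and less RNA per cell cannot be told apart.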

How the data were processed

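Per the labels' protocols, biotin-labelled target was made from total RNA of 6 samples. The authors deposited log2 signals for each probe set, between 2.26 and 14.03. Per the submitters' processing notes they came from Affymetrix Expression Console. Not given in the sources used here are its version and how arrays were summarised and normalized. The log2 scale was inferred from the range of the values, and signal over background was not analysed here.

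Of 35557 rows, 21789 list 1 gene, and symbols were updated by gene identifier through RefSeq (21698 rows matched), with the row of highest mean kept per gene. The groups were compared in R 4.3.3 by limma 3.58.1 (two-sided, functions lmFit and eBayes), with Benjamini-Hochberg adjustment over all 19938 named genes and a threshold of 0.05. Lists were not tested as sets. The members and lists were chosen with earlier results of these data known. By rule, array values are given for members past the threshold or with groups that do not overlap, type IV chains, Lama1, Lamb1, Lamc1, Col1a1, Col1a2 and Col3a1. From each list, members past the threshold or the 2 with the smallest p are named. The others (the remaining laminin chains, Col15a1, Col6a5, Sec24d, Sec13, Sec31a, Hspg2, Itga3 and Ddr1) were added after their values were seen.

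No label says what equal replicate numbers share. Deviations from the group means correlated at 0.61, 0.23 and 0.70 between same-numbered arrays, over the criterion of 0.1, so values with the replicate block are given where they change a call. The alternatives were that block, quantile normalization, centring on array medians, leaving out the dimmest rows, a trended and robust prior, array weights (gene-by-gene method, since the default did not converge), the mean of a gene's rows, all rows tested, a minimum fold of 1.5, and leaving out each array. The procedure was run on simulated data with independent noise for each gene and no shift of a whole array. Its pass mark covered only changes far larger than any member's difference. Promoter windows were read from the RefSeq table.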

Additional observations from a re-analysis of the deposited data

How the results depend on the processing

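Few arrays limit the precision, and signal over background was not analysed here. Of the 54 genes, 0 were called with quantile normalization, median centring, the mean of a gene's rows, all rows, a minimum fold or any array left out. Lamb1 alone, 1 gene, was called with the replicate block, without the dimmest rows and with a trended and robust prior (adjusted p 0.0474, 0.0445 and 0.0231), and 2, Lamb1 and Lamb3, with array weights. Over all settings Lamb1 ran from -0.39 to -0.31 (adjusted p 0.0102 to 0.36). In the same order the named genes called numbered 614 (3.08%), 351 (2.37%), 446 (2.24%) and 1633 (8.19%), against 158 (0.792%). Without the dimmest rows, 50 of the members were among the 14800 genes tested. They were 12 with all rows tested, 75 at 1.5-fold, and between 0 and 290 with 1 array left out, 0 on leaving out the first control, the second control or the first knockdown array. The block changed no other call among the 54 genes. The median of all named genes was -0.0033 without the dimmest rows, 0.00083 with array weights, and -0.0050 to 0.0283 with 1 array left out.

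Uncalled differences near 0 changed sign in many collagen genes: 9 of 44 lay below 0 with all arrays, against 29 with array weights, 7 with quantile normalization, 22 without both arrays numbered 3, and 3 to 39 with 1 array left out. Values are given here only for the genes described by array in the text and Col14a1, Col20a1 and Col28a1. Among these, with array weights, the sign changed for Col15a1 (-0.041), Col4a2 (-0.12), Col4a3 (-0.071), Col4a4 (-0.047), Col4a5 (-0.050), Col1a2 (-0.059), Col3a1 (-0.092) and Col28a1 (-0.25), and with quantile normalization for Col1a1 (0.030). Without both arrays numbered 3 it changed for Col15a1 (-0.045), Col4a2 (-0.125), Col4a4 (-0.070), Col4a5 (-0.010), Col4a6 (-0.010), Col1a2 (-0.025), Col3a1 (-0.040) and Col28a1 (-0.19). With 1 array left out Lamc3 ran from -0.018 to 0.16, Col15a1 from -0.087 to 0.16, Col4a1 from -0.165 to 0.043, Col4a2 from -0.15 to 0.092, Col4a3 from -0.070 to 0.20, Col4a4 from -0.115 to 0.18, Col4a5 from -0.14 to 0.225, Col4a6 from -0.087 to 0.26, Col1a1 from -0.17 to 0.090, Col1a2 from -0.10 to 0.22, Col3a1 from -0.12 to 0.17, Col20a1 from -0.25 to 0.018 and Col28a1 from -0.20 to 0.19. Leaving out an array removes samples, and the cause of the other shifts was not tested.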
